A study of Sus scrofa with 8 samples.

Results

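The genes that release, take up and store calcium in skeletal muscle were compared between the muscle of pigs fed diets of high and of low energy. Members were given by name, 9 in all, and a spot was taken when the platform annotation gives it 1 gene symbol and that symbol is one of them. Of the 9 genes, 8 had such spots, namely RYR1, CACNB1, FKBP1A, ATP2A1, ATP2A2, SLN, CASQ1 and CASQ2. They hold 22 of the 9984 spots of the array, which names 2922 genes in all. PVALB, which encodes the calcium buffer parvalbumin of fast fibres, had no spot and was not analysed here. All 8 genes were measured on all 8 arrays, and 3 of their 176 spot values were missing, each from a spot of ATP2A2.

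On each array, labelled muscle cDNA from both diets, 1 sample of each, competed for the same spots. Going by the labels there were 4 couples, each run on 2 arrays with the dyes exchanged. Low energy samples 49, 61, 142 and be were set against high energy samples 40, 41, 40 again and ae, in couples 1 to 4. The sources used here do not give strain, age, sex, muscle or the composition of the diets, or whether a sample is 1 animal or several, so the errors are those between couples and may be technical in part. Both arrays of a couple carry the same RNA pair and count as 1 replicate. A value above 0 most likely means more RNA in the high energy sample: the labels place that sample in channel 2 of every array, and the design text takes low energy as the reference, but the direction is not stated. The turned value, the mean after a change of sign on each array whose high energy sample carried dye 3, is therefore given too. It is the ratio if the values run dye over dye, and the dye effect if they run high over low energy. Ratios hold no expression level, so the tissue was not checked by levels; the recovered signal, a lower bound on spot brightness read from the digits of a ratio, had a median of 975 over 23 fibre marker genes and 372 over all named genes.

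A muscle fibre contracts when calcium leaves the sarcoplasmic reticulum, its internal calcium store, and relaxes when pumps return it. The voltage sensor of the cell membrane, a calcium channel with pore and accessory subunits, opens the ryanodine receptor RYR1, which lets the calcium out. The SERCA pumps take it up again, and calsequestrin holds it inside the store. Fast and slow fibres use different members: SERCA1 (ATP2A1) and parvalbumin mark fast fibres, while SERCA2 (ATP2A2) and calsequestrin 2 are typical of slow fibres and heart. Calsequestrin 1 is the form of fast fibres but is not confined to them.

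None of these 8 genes passed the test for a difference between the diets. The mean over couples was smaller than the SD between couples for 6 of them, and larger for CACNB1 (0.14, SD 0.064) and ATP2A1 (0.034, SD 0.022). By limma with Benjamini-Hochberg adjustment over 5025 features, 0 of 8 passed a threshold of 0.05 (0% of all features passed), and the lowest adjusted p among them was 0.996. Likewise 0 of 8 had an unadjusted p under 0.05, against 3.78% of all features. Fitted log2 ratios ran from -0.078 for ATP2A2 to 0.22 for FKBP1A. Above 0 lay 5 genes, RYR1, CACNB1, FKBP1A, ATP2A1 and CASQ1, and 3, ATP2A2, SLN and CASQ2, lay below. The median over the 8 was 0.037, beside -0.0087 over the 2556 named genes tested, of which 47.4% lay above 0. CACNB1 and ATP2A1 were above 0 in all 4 couples and no member was below 0 in all; of the 3640 features on all arrays, 7.47% were above 0 in all couples and 16.6% had 1 sign in all. No gene of the 8 kept 1 sign on all 8 arrays, as 2.25% of those features did. The turned values did not pass either, with 0 of 8 at an adjusted p under 0.05 (0% of features) and 0 of 8 at an unadjusted p under 0.05 (2.65% of features). In bulk muscle, fewer fibres of a type and less RNA per fibre cannot be told apart.

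**Figure D1:**
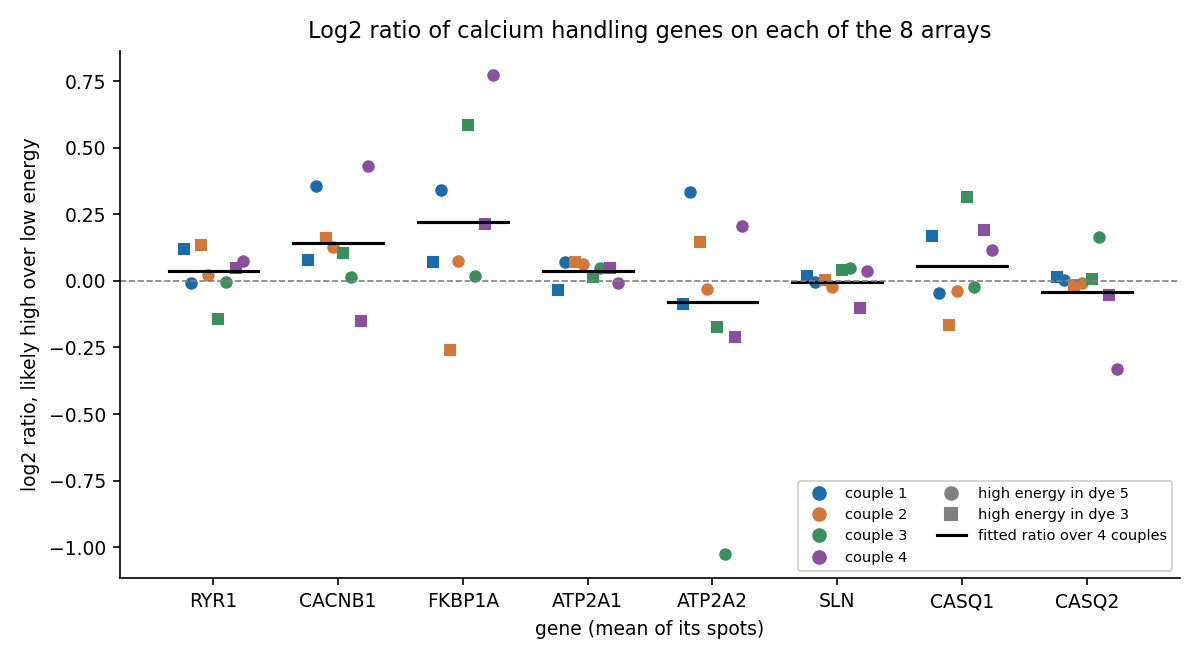
Log2 ratio (likely high over low energy) of each gene on each array, as the mean of its spots; colours are couples, circles have high energy in dye 5, squares in dye 3, and black lines are fitted ratios over 4 couples. ATP2A1 and SLN lie within 0.11 of 0 on every array, while ATP2A2 reaches -1.03 on 1 array of couple 3.

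Among the genes of calcium release, RYR1 stayed near 0. With high energy in dye 5, couples 1 to 4 had log2 ratios of -0.0077, 0.021, -0.0046 and 0.074, and with high energy in dye 3 they had 0.12, 0.14, -0.14 and 0.049. Above 0 were 5 arrays and below it 3, and the lowest was the swapped array of couple 3. The fitted log2 ratio was 0.038 ± 0.086 (limma SE, 4 couples; turned -0.012). Its 95% interval ran from -0.18 to 0.25, or from 0.884-fold to 1.19-fold. These values are means of spots 2739 and 2740, which had opposite signs on 4 of 8 arrays and differed by up to 0.54. In couple 3 with high energy in dye 5, these spots had -0.25 and 0.24.

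CACNB1 encodes the beta subunit of the muscle voltage sensor, which brings the channel to the membrane and couples it to RYR1. Its arrays had 0.36, 0.13, 0.016 and 0.43 with high energy in dye 5, and 0.079, 0.16, 0.10 and -0.15 with high energy in dye 3. Above 0 were 7 arrays, and the exception was the swapped array of couple 4, whose partner was the highest of the 8. Couple means were 0.22, 0.15, 0.060 and 0.14, and the fitted ratio was 0.14 ± 0.087 (turned 0.10; adjusted p by limma 0.996). Of the 8 genes it had the second smallest unadjusted p, and its interval of 0.948-fold to 1.28-fold included no change. Its spots 1449 and 1450 had similar fitted ratios, 0.15 ± 0.11 and 0.14 ± 0.090.

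FKBP1A encodes FKBP12, a small protein that binds RYR1 and favours its closed state, and had the largest ratio of the 8. Its arrays had 0.34, 0.073, 0.018 and 0.77 with high energy in dye 5, and 0.072, -0.26, 0.58 and 0.21 with high energy in dye 3. Above 0 were 7 arrays, but their sizes did not repeat between the swapped arrays of a couple. Couples 1 to 4 had means of 0.21, -0.092, 0.30 and 0.49, which gave 0.22 ± 0.13 (turned 0.10; adjusted p by limma 0.996). The ratio was 0.36 without couple 2 and 0.11 without couple 4. The interval ran from 0.936-fold to 1.45-fold, the highest upper end among the 8 genes. Its spots were dim, with a median recovered signal of 426.5. Neighbouring spots 5793 and 5794 of the gene had opposite signs on 5 of 8 arrays and a median difference of 0.48, larger than in 85.4% of named spot pairs.

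**Figure D2:**
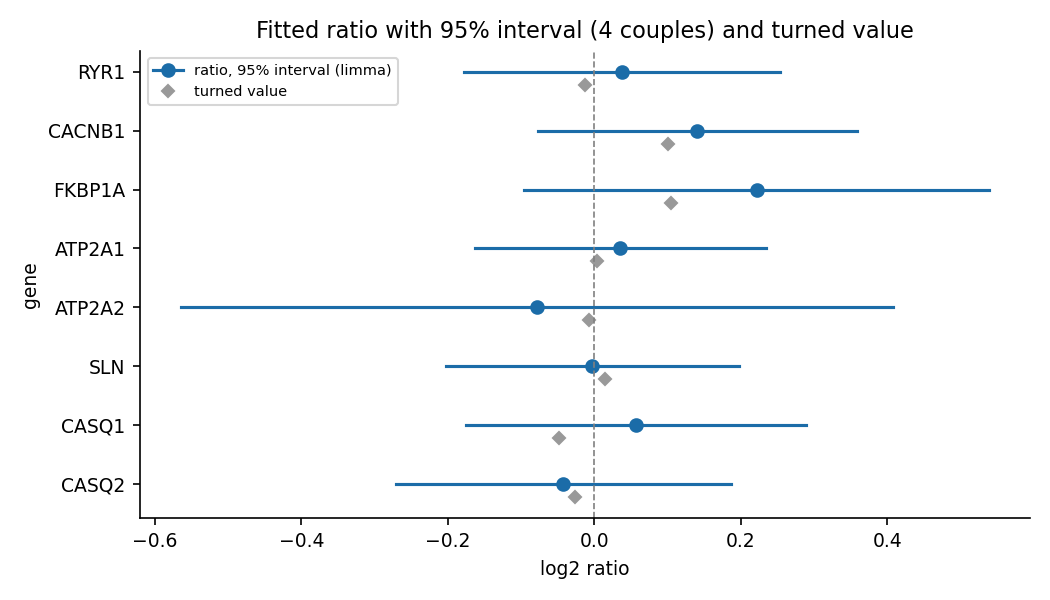
Fitted log2 ratio of each gene (blue point) with its 95% interval from limma over 4 couples, and the turned value (grey diamond). All 8 intervals include 0; that of ATP2A2, from -0.56 to 0.41, is the widest.

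Among the genes of calcium uptake was ATP2A1, the SERCA pump of fast fibres. Its mean over 4 spots had one of the most even patterns on the array, but its single spots were less even. Its 4 spots averaged 0.069, 0.063, 0.048 and -0.0062 in couples 1 to 4 with high energy in dye 5, and -0.033, 0.071, 0.013 and 0.048 with high energy in dye 3. Above 0 were 6 arrays, and every value lay within 0.071 of 0. Couple means were 0.018, 0.067, 0.030 and 0.021 (SD 0.022). The fitted ratio was 0.036 ± 0.079 (turned 0.0043), and only 0.509% of named genes had a smaller SE. The smallest SE of any feature in 4 couples was also 0.079: limma draws each gene's spread towards that of all features, so the interval of 0.893-fold to 1.18-fold is wider than these couples alone would give. The gene has 2 pairs of spots in different places. Spots 155 and 156 had couple means of 0.065, 0.020, -0.040 and -0.036. Spots 3379 and 3380 had -0.029, 0.11, 0.10 and 0.078, so the pairs differed in sign in couples 1, 3 and 4. Single spots had array SDs of 0.075 to 0.17, beside 0.038 for the mean of the 4. Spot 155 ran from -0.28 to 0.28.

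ATP2A2, the SERCA pump of slow fibres and heart, had 6 spots that did not repeat each other. Averaged over those present, its arrays had 0.33, -0.029, -1.03 and 0.20 with high energy in dye 5, and -0.087, 0.15, -0.17 and -0.21 with high energy in dye 3. The low array of couple 3 stood apart from its own swap and from the other 6. The fitted ratio was -0.078 ± 0.19 (turned -0.0071; adjusted p by limma 0.996), and it was 0.059 without couple 3. The interval ran from 0.676-fold to 1.33-fold, and 86.9% of named genes had a smaller SE.

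Spot by spot, the extreme values of ATP2A2 came from spots 229 and 539 on the couple 3 array with high energy in dye 5, which had -2.33 and -2.79. The recovered signal of spot 229 there was 5, which is only a lower bound on its brightness. That of spot 539 was not under 136 on any array, and that of the gene had a median of 310.5. The fitted ratios of spots 229 and 230 were -0.18 ± 0.58 and -0.39 ± 0.11, each in 3 couples. Those of spots 539 and 540 were -0.84 ± 0.44 in 3 couples and 0.16 ± 0.16. Spots 6097 and 6098 had 0.20 ± 0.19 and 0.27 ± 0.091. Spot 230 (unadjusted p = 0.019) and spot 6098 (unadjusted p = 0.026) thus reached an unadjusted p under 0.05 in limma in opposite directions. They were 2 of the 22 member spots, where 3.35% of the 7563 spots tested were at that level. No member spot passed after adjustment (0% of spots; lowest adjusted p by limma 0.999).

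**Figure D3:**
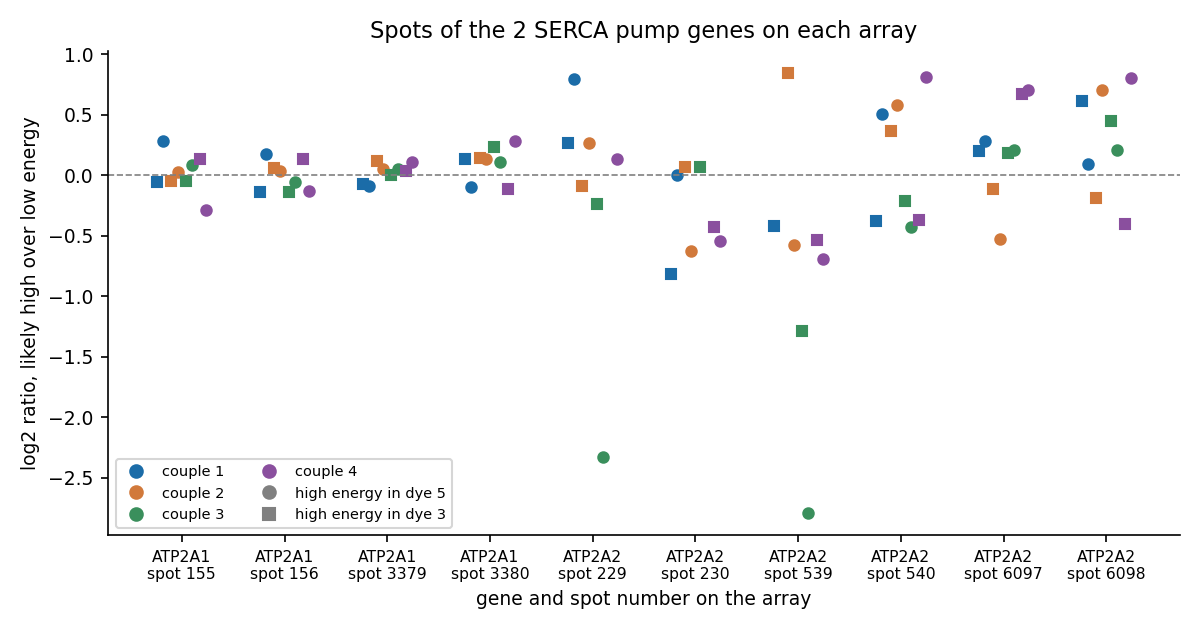
Log2 ratio (likely high over low energy) of each spot of ATP2A1 and ATP2A2 on each array; colours are couples, circles have high energy in dye 5, squares in dye 3. The 4 spots of ATP2A1 lie between -0.284 and 0.283, while those of ATP2A2 scatter more, with -2.33 and -2.79 on 1 array of couple 3.

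SLN encodes sarcolipin, a short membrane peptide that binds SERCA and lowers the calcium moved per ATP. Its ratios were close to 0 throughout, at -0.0052, -0.023, 0.050 and 0.036 with high energy in dye 5, and 0.018, 0.0039, 0.040 and -0.10 with high energy in dye 3. Couple means were 0.0066, -0.0097, 0.045 and -0.034 (SD 0.033). The fitted ratio was -0.0026 ± 0.080 (turned 0.015), with an interval of 0.869-fold to 1.15-fold. The sign of so small a ratio depended on the setting, and it was above 0 without centring, with quantile normalization and with couples taken as independent. Spots 295 and 296 differed by a median of 0.043, and 1.33% of named spot pairs were closer. Phospholamban (PLN), the inhibitor of SERCA2, lies in the same role and had -0.044 ± 0.095 (turned -0.13).

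Of the calcium store proteins, calsequestrin 1 (CASQ1) was a little above 0 and calsequestrin 2 (CASQ2) a little below, both within error. CASQ1 had -0.045, -0.039, -0.023 and 0.12 with high energy in dye 5, and 0.17, -0.16, 0.32 and 0.19 with high energy in dye 3. Above 0 were 4 arrays and below it 4, the latter being 3 of dye 5 and 1 of dye 3. The fitted ratio was 0.057 ± 0.093 (turned -0.048), with an interval of 0.885-fold to 1.22-fold, and was 0.13 without couple 2 and 0.016 without couple 4. Spots 3349 and 3350 of CASQ1 differed by a median of 0.056, and they had opposite signs on 2 of 8 arrays. CASQ2 had 0.0026, -0.0068, 0.16 and -0.33 with high energy in dye 5, and 0.015, -0.014, 0.0079 and -0.053 with high energy in dye 3. Couples 1 and 2 were near 0, and couple 4 was lowest on both arrays. That low came mainly from spot 1277, at -0.54 with high energy in dye 5 and -0.18 in dye 3. Spot 1278 had -0.12 and 0.071 there, and the spots had opposite signs on 5 of 8 arrays. The fitted ratio of CASQ2 was -0.042 ± 0.092 (turned -0.026) with an interval of 0.829-fold to 1.14-fold, and it was 0.022 without couple 4.

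The pumps, and likewise the calsequestrins, were then set against each other within each couple, so each difference carries the spread of both genes. As CASQ1 is not confined to fast fibres, the calsequestrin difference is a weaker contrast of fibre types. For the pumps, ATP2A1 minus ATP2A2 was -0.11, 0.0074, 0.63 and 0.025 in couples 1 to 4, a mean of 0.14 ± 0.33 (SD, n = 4). The exact sign-flip permutation test over couples gave a two-sided p of 0.625. It cannot reach 0.05 with 4 couples, since at least 2 of the 16 sign assignments are as extreme. It also takes the couples as independent, though couples 1 and 3 share high energy sample 40. The pump difference rested on couple 3, and was -0.024 without it. For the calsequestrins, CASQ1 minus CASQ2 was 0.053, -0.091, 0.061 and 0.35, a mean of 0.092 ± 0.18 (SD, n = 4). The same permutation test gave a two-sided p of 0.5. The calsequestrin difference was 0.0075 without couple 4, where spots 1277 and 1278 of CASQ2 had means of -0.36 and -0.025. Neither difference was larger than the spread between couples. Other fibre markers were taken in lists without these genes. The 11 fast genes had a median of 0.096 (7 above 0, 4 below), and the 12 slow genes had -0.059 (2 above 0, 10 below). No gene passed the adjusted threshold (0% of all features). By limma 2 fast and 3 slow genes had an unadjusted p under 0.05, against 3.78% of all features. PGAM2 of glycolysis, the fast marker with the smallest p, had 0.35 ± 0.089 (turned -0.057). MYBPC1, the slow myosin-binding protein C, had -0.31 ± 0.091 (turned 0.024). Of the fast genes below 0, MYH1 had -0.17 ± 0.11 (turned 0.060). Of the slow genes above 0, ANKRD2 had 0.15 ± 0.083 (turned -0.069). The part of fibre type in the calcium ratios was not tested.

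Spot brightness moved with the spread of these genes. Over the 22 spots, the SD of the log2 ratio over arrays and the median recovered signal had a Spearman correlation of -0.732, and over 5418 spots on all arrays it was -0.63; spots share arrays and some share a gene, so both are descriptions. The dim genes were ATP2A2 and FKBP1A, with array SDs of 0.42 and 0.33. The other 6 had median recovered signals of 2732.5 to 10593.5 and array SDs of 0.038 to 0.18, beside a median of 0.26 over named genes on all arrays. With values of a log2 recovered signal of at least 9 alone, these 6 could be tested and ATP2A2 and FKBP1A could not. Sets of spots with different probes were not ranked by expression, since signal also depends on the probe.

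**Figure D4:**
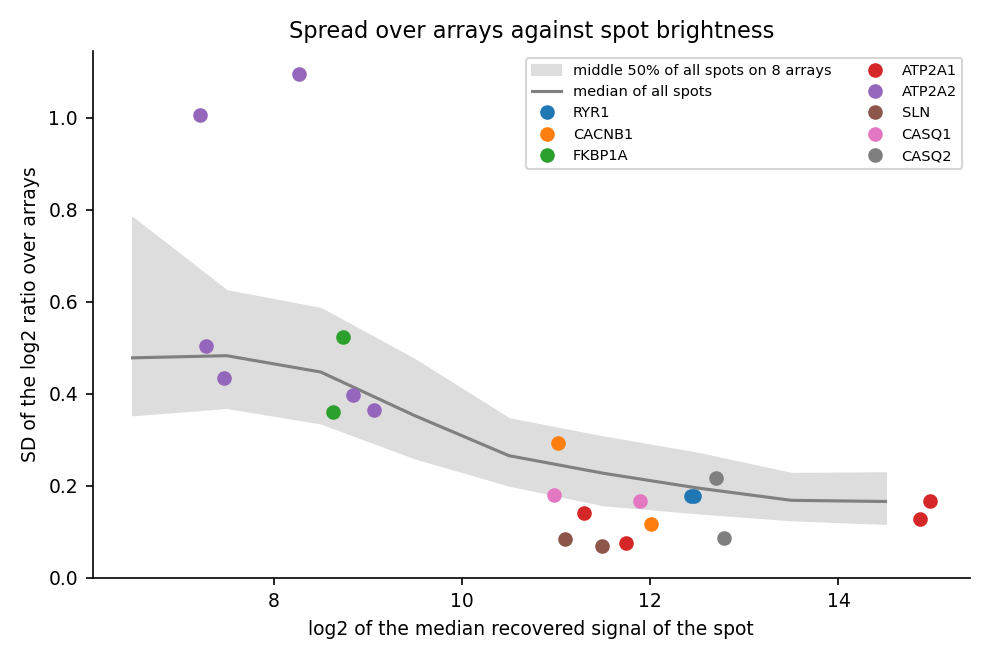
SD of the log2 ratio over arrays against the log2 median recovered signal, for the 22 spots (coloured by gene); the grey line and band are the median and middle 50% of all spots on 8 arrays in bins of 1 log2 unit. The spots of ATP2A2 and FKBP1A lie on the left with large spread, and 2 spots of ATP2A2 lie above 1.

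Of the 102 other genes of calcium handling and signalling in the lists used, 37 had a spot and all 37 were tested. By limma 0 of 37 passed the adjusted threshold (0% of all features), and 0 of 37 had an unadjusted p under 0.05 (3.78% of all features). Above 0 lay 21 and below it 16, with a median of 0.037, where 47.4% of named genes tested lay above 0. The release complex and the triad, the junction of cell membrane and store, had 7 of them (5 above 0, 2 below; median 0.037). Among them CACNA1S, the pore of the voltage sensor, had 0.068 ± 0.10 (turned 0.0038). JPH2, a junctophilin that holds the triad together, had -0.12 ± 0.12 in 3 couples (turned 0.059). The genes STAC3 and JSRP1, which encode partners of the voltage sensor, had 0.037 ± 0.086 and 0.058 ± 0.091 (turned 0.040 and 0.042).

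Uptake regulators and store proteins had 6 genes (3 above 0, 3 below; median 0.028). CALR, the store protein calreticulin, had 0.47 ± 0.52 (turned 0.42). Its couple means were -0.062, 0.40, -1.13 and 1.95, so the couples disagreed in sign. CANX, the chaperone calnexin, had 0.12 ± 0.11 (turned -0.060). Of calcium entry at the cell surface 2 genes were measured. CACNB2 had 0.45 ± 0.30 (turned 0.42), which came from 1.49 in couple 2. STIM1, the sensor of store filling, had -0.13 ± 0.13 (turned -0.065).

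The 5 genes of the mitochondrial list, which are not all calcium transporters, had a median of 0.037 (3 above 0, 2 below). Among them were VDAC1, an outer membrane channel, at 0.25 ± 0.20 (turned -0.29) and SLC25A12, a calcium-regulated carrier, at 0.14 ± 0.11 (turned 0.043). The 6 genes of calmodulin kinase and calcineurin signalling had a median of -0.042 (2 above 0, 4 below). CAMK2D, a calmodulin kinase, had -0.12 ± 0.18 (turned -0.22) and RCAN1, a regulator of calcineurin, 0.090 ± 0.19 in 3 couples (turned -0.22). The 11 other cytosolic calcium-binding proteins and calpain genes had a median of 0.063 (7 above 0, 4 below). S100B had 0.37 ± 0.17 in 3 couples (turned -0.15) and ANXA5, an annexin, had 0.16 ± 0.086 (turned -0.13).

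**Figure D5:**
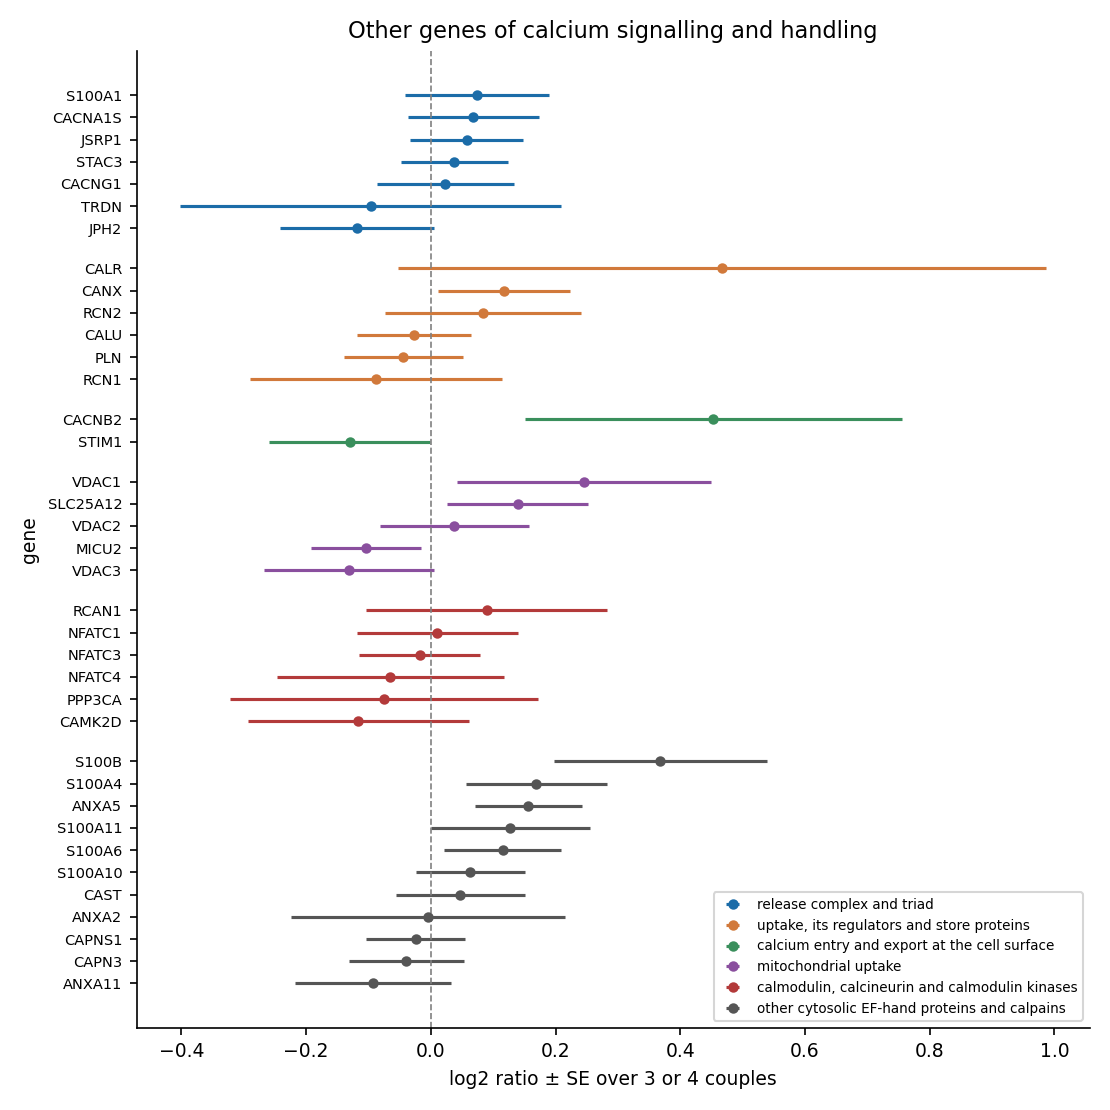
Log2 ratio (likely high over low energy) ± limma SE over 3 or 4 couples for the 37 other calcium genes, grouped and coloured by role. Ratios run from -0.13 to 0.47, and the largest, CALR, also has the widest error bar.

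The likeness of patterns was measured as the root mean square difference of the log2 ratio over the 8 arrays, against 1927 other named genes on all arrays. The nearest gene was BUD31 for RYR1 (0.066), TNIP1 for CACNB1 (0.10), RND1 for FKBP1A (0.19) and COX16 for ATP2A1 (0.045). It was GPS1 for ATP2A2 (0.15), PUF60 for SLN (0.049), DES, the muscle intermediate filament desmin, for CASQ1 (0.084) and ITGB1BP2, the muscle protein melusin, for CASQ2 (0.047). Among the 8 genes themselves the closest were ATP2A1 and SLN, at 0.075, with 25 other genes nearer to ATP2A1 and 24 nearer to SLN. This measure is small wherever 2 genes both stay near 0.

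Markers of other cell types gave no call in limma at the adjusted threshold (0% of all features). Medians were 0.12 for 5 vessel genes (4 above 0, 1 below) and 0.015 for 5 fibroblast genes (4 above, 1 below). For 5 fat cell genes the median was -0.068 (2 above, 3 below) and for 9 immune genes -0.018 (4 above, 5 below). For 4 heart genes it was 0.054 and for 4 blood genes -0.0018, each with 2 above and 2 below. The smallest p in each was that of EMCN at 0.25 ± 0.12 in 3 couples (turned 0.15), COL1A2 at 0.23 ± 0.11 (turned -0.31) and LIPE at 0.31 ± 0.38 (turned -0.12). Next came C1QA at -0.34 ± 0.16 (turned -0.096), MYL7 at 0.24 ± 0.093 (turned 0.15) and AHSP at -0.27 ± 0.16 (turned 0.17). COL1A2 was above 0 on 4 arrays and below it on 4. The only nerve marker tested was S100B.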

How the data were processed

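Muscle RNA was labelled with Cy3 and Cy5 and read on a ScanArray LITE scanner, per the series' design text. The authors deposited log2 ratios of an array's channels; the base was read from the values. How background, spot filter and normalization were handled, and the probe sequences, are not given in the sources. Between 77.6% and 94.4% of the 9984 spots of an array had a value, with an SD of 0.341 to 0.724 and medians of -0.0071 to 0.0115; no counts exist, so the number of arrays limits the precision.

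Arrays were centred on their medians, spots of 1 symbol averaged, and swapped arrays averaged per couple. Features with both orientations in at least 3 couples were tested with lmFit and eBayes (limma 3.58.1, R 4.3.3) against 0, two-sided, Benjamini-Hochberg threshold 0.05, blocked on the high energy sample (correlation set to 0.5), which gives couples 1 and 3 less weight each. Errors are limma's SE unless SD is named. The fit was tested on simulated data with 1 spread for all features and the correlation of 0.5 built in. That test does not cover the wider spread of dim spots.

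The recovered signal is the larger number of the simplest ratio of whole numbers whose log2 is the value. In 85.7% to 97.0% of an array's values the smaller number was under 5000, compared with 0.67% of random values; a value of 0 gives none. Symbols are those of the platform annotation, whose accessions are human; pig RNA can bind such probes unequally. Neighbouring named spots share a symbol in all 3305 pairs.

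Named are all the calcium genes asked for, of each pathway list the 2 genes with the smallest p, of each marker list the 1 with the smallest p, and the nearest gene by pattern. PLN, STAC3, JSRP1, MYH1, ANKRD2 and the S100 genes were named after their values were seen. Genes and lists were chosen with earlier results of these data known. Alternatives covered centring, scaling, block, dye orientation, direction, missing and dim values, duplicate spots, robust eBayes and each couple left out.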

Additional observations from a re-analysis of the deposited data

Results flagged for a closer look

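Of the calcium genes, 2 values stood apart from the other 3 of their set by Dixon's 95% limit, among 24 sets of 4 looked at. Chance gives about 1 in 20. Couple 3 of RYR1 had a log2 ratio of -0.075, while couples 1, 2 and 4 had 0.056, 0.079 and 0.061. In couple 3, spot 2739 of RYR1 had -0.20 and spot 2740 had 0.046, so the low value came from spot 2739 alone. CASQ1 had 0.115 in couple 4 with high energy in dye 5, while the other 3 arrays of that orientation had -0.045, -0.039 and -0.023. No calcium gene had opposite signs in all arrays of the dye orientations.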

How the results depend on the processing

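No calcium gene passed the adjusted threshold in any of 134 alternative values, and 0 features passed in any setting. Without centring, by quantile normalization, with couples independent, with high energy in dye 5 alone and with bright values alone, SLN had 0.0012, 0.0022, 0.0022, 0.013 and 0.0051. Turned, RYR1 had -0.012, SLN 0.015 and CASQ1 -0.048. All 8 arrays were also fitted with couple as a replicate block. The correlation of arrays within couples was -0.0362 over the features tested. By this measure, arrays of a couple were no more alike than arrays of different couples. In that fit SLN had 0.0022 and FKBP1A 0.23, and no call of a calcium gene changed. Leaving out 1 couple gave -0.18 to 0.059 for ATP2A2, -0.012 to 0.011 for SLN and -0.065 to 0.022 for CASQ2. Among ATP2A2 spots, spot 229 had 0.033 by quantile normalization and -0.60 to 0.31 without 1 couple, spot 230 0.00024 turned, spot 540 -0.12 with high energy in dye 3 alone, and spot 6097 -0.046 turned and -0.011 to 0.42 without 1 couple. Over all 22 spots, 38 of 339 alternative values changed sign and 0 passed. Features at an unadjusted p under 0.05, 190 in the fit described, numbered 310 with independent couples, 353 with the replicate block, 99 with high energy in dye 5 alone, 106 with bright values alone and 107 to 284 without 1 couple, with 107 without couple 2 and 122 without couple 4. The cause of these changes was not tested. Averaging swapped arrays assumes that values run high over low energy on each. Dim spots limit ATP2A2 and FKBP1A, which could not be fitted with bright values alone.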

Other observations

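The S100 genes, small calcium-binding proteins of many cell types, were looked at after their values were seen, so no test is given. Of 10 tested, 7 had a fitted ratio above 0, where 47.4% of named genes did, with a median of 0.094 over the 10. The largest ratios of the 10 were those of S100B, at 0.37 ± 0.17 in 3 couples (turned -0.15), S100A9 and S100A4. S100A9, a protein of neutrophils and monocytes, had 0.25 ± 0.13 (turned -0.033), and S100A4 had 0.17 ± 0.11 (turned -0.095). Of these 3, S100A9 was above 0 in all 4 couples, at 0.041, 0.11, 0.45 and 0.38. S100A8, which pairs with S100A9 in the complex calprotectin, had -0.15 ± 0.12 in 3 couples and was below 0 in each. S100A12 had -0.0015 ± 0.13 and S100P -0.076 ± 0.098. With the swapped arrays turned, 5 of the 10 were above 0 and the median was -0.0059, and without couple 4 the median was 0.042. With high energy in dye 3 alone the median was 0.029. With bright values alone 4 of these genes could be tested, of which 2 were above 0, and the median was 0.019. Median recovered signals were 363 for S100B, 429.5 for S100A9 and 689 for S100A4. None of the 10 passed the adjusted threshold of limma (0% of all features).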
